A study of Cucumis sativus with 25 samples.

Results

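The count table of cucumber (Cucumis sativus) shoot tips lists 249 miRNAs, of which 181 belonged to no known miRNA family and carry only a number, written here as n-mir and that number. The account below is about 76 short n-mirs, those with a listed mature sequence of 21 nt or less after 18 n-mir numbers had been set aside. Before that step 86 n-mirs were 21 nt or shorter, and 10 of them were among the numbers set aside. The numbers set aside were mostly those with a high level or a clear temperature difference in these libraries. A lower level and a lower share of calls among the 76 therefore follow in part from how they were chosen.

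All plants were the inbred line 9930 at the seedling stage, and the tissue was the shoot tip, pooled from many plants. There were 4 treatments with 3 small RNA libraries each. HL plants were kept at a high temperature with long days (16 h light at 28 °C and 8 h dark at 25 °C) and HS plants at the same temperatures with short days (8 h light and 16 h dark). LL plants were kept at a low temperature with long days (16 h light at 20 °C and 8 h dark at 15 °C) and LS plants at those temperatures with short days (8 h light and 16 h dark). Each temperature level covers a day and a night setting, and a longer day also means more hours at the day setting, so light and warmth cannot be told apart fully in the photoperiod comparison. The labelled tissue was not checked against meristem or leaf marker genes, because the gene IDs could not be paired with names. The libraries were labelled as biological replicates.

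Plant miRNAs are cut by DICER-LIKE1 from hairpin precursors and guide ARGONAUTE proteins to matching mRNAs, which are then sliced or held back from translation. The size class of the short n-mirs is the usual product of that enzyme, and a uracil at the 5′ end, written T in these sequences, favours loading into ARGONAUTE1. In the shoot tip, miRNAs of old families are known for setting organ boundaries, leaf polarity and the change from juvenile to adult growth. No role was assigned here to the n-mirs, which the study defined by a hairpin precursor and by the lack of a known family. Bases 2 to 8, called the seed in animals, are marked below in capitals because pairing near the 5′ end also matters in plants.

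Of the 76, 70 were 21 nt long and 6 were 20 nt long. The first base was T in 52 (68.4%), C in 12, A in 11 and G in 1. Among the 87 longer n-mirs not set aside the first base was T in 48 (55.2%), and among the 68 known families it was T in 45 (66.2%). The median GC content was 41.4% in the short n-mirs, 34.8% in the longer ones and 42.9% in the known families. Those with a first T carried 83.9% of the summed level of the 76.

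The sequences below belong to the short n-mirs on which the level and treatment results rest, written 5′ to 3′ with bases 2 to 8 in capitals. The first 3 were the most abundant, the next 4 differed by temperature on each scale tried, as did n-mir318, n-mir170 differed by photoperiod, and n-mir3 was the most uneven among replicates of those with at least 100 counts.
n-mir104: tCGGACATcggcgacttggaa
n-mir318: tGAGAAAGgagaatcttgcac
n-mir176: tGGGAGAAagtgatagagtgg
n-mir184: aTTTAAAAtcatagggactaa
n-mir214: tCAAGAATgtgacgatgtttg
n-mir294: aTTTTAGGattgattgtaaaa
n-mir40: tCAAACTAtagaagcgattat
n-mir170: tGATTGTTgatggaggcttta
n-mir3: aTCAAGTCaggatggccgagt
None of the short n-mirs held an exact stretch of 16 bases in common with another miRNA of the table, apart from the identical pair described below. Only exact matches were searched, so likeness broken by a mismatch was not counted. n-mir317, for example, resembles the dominant miR168 sequence of the study with a shift and a mismatch.

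Only a few of the 76 shared bases 2 to 8 with another entry. n-mir214, n-mir17 and n-mir145 formed the one group of 3, with CAAGAAT in those positions and no shared run beyond base 9.
n-mir214: tCAAGAATgtgacgatgtttg
n-mir17: tCAAGAATtgtaaacgtcgtt
n-mir145: tCAAGAATgaaacagtagact
Their levels lay far apart, at 14215 summed counts for n-mir214, 195 for n-mir145 and 59 for n-mir17. n-mir214 was higher at high temperature (below). n-mir145 had 12, 11 and 21 counts in HL, 19, 18 and 13 in HS, 27, 13 and 15 in LL and 19, 10 and 17 in LS, which overlapped throughout. n-mir17 had 3, 5 and 1 counts in HL, 9, 4 and 6 in HS, 5, 3 and 4 in LL and 5, 9 and 5 in LS, also with overlap.

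Another 3 short n-mirs shared these bases with a miRNA outside the 76, which is printed under each.
n-mir210: tGGAGAAGcagacactgacaa
miR164: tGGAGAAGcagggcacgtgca
n-mir181: tTGGGTTGggttgtcgggtt
n-mir286: tTGGGTTGggttaggttgggttc
n-mir230: cTAAATTTaaatgatcgtttt
n-mir271: tTAAATTTggtacagatcgttta
n-mir210 had its first 11 bases in common with miR164, a family that is known to guide the cutting of NAC transcription factor mRNAs and to set organ boundaries at the shoot apex. The 2 sequences part after that stretch, so n-mir210 is not a copy of miR164. n-mir181 and n-mir286 had 12 bases in common, in a run built from repeated GGGTT. n-mir210 and n-mir181 were also among the steadiest of the 76. n-mir210 had 53.0, 52.6 and 51.2 counts per 1000000 clean reads (CPM) in HL, 48.4, 42.6 and 44.6 in HS, 48.4, 45.9 and 49.5 in LL and 46.3, 53.4 and 46.6 in LS. n-mir181 had 58.1, 49.2 and 47.8 CPM in HL, 50.4, 51.6 and 48.3 in HS, 52.5, 50.7 and 52.2 in LL and 54.6, 59.0 and 48.4 in LS, so its highest library was 1.23 times its lowest.

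n-mir21 was the one entry of the whole table that held TTTAGGG, the repeat unit of most plant telomeres, or its reverse complement CCCTAAA. The unit was in 1 of 76 short n-mirs and in 0 of the other 173 miRNAs, and it is followed in n-mir21 by the start of a second one.
n-mir21: tTTAGGGTttagagaagtgca
n-mir21 had 4.61, 1.56 and 2.89 CPM in HL, 4.66, 3.04 and 3.02 in HS, 3.14, 2.15 and 2.58 in LL and 4.34, 2.83 and 2.55 in LS. Its replicates in HL lay 2.96-fold apart, which was wider than the differences between treatment means. Such a match describes letters and gives no place of origin.

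The listed sequences of n-mir60, n-mir62 and n-mir63 need care. In the count table each carries the sequence that the study's own table of precursors gives to the entry before it, and n-mir59 and n-mir60 are therefore identical letter for letter.
n-mir59: tGGAACTTtgagaactgcgga
n-mir60: tGGAACTTtgagaactgcgga
n-mir62: cCTTGGCTgacgacatgacgg
n-mir63: cATGACCAaaatgcgaactta
The precursor table gives n-mir60 the sequence that the count table gives n-mir62. For 72 of the 76 both tables listed the same sequence, for these 3 they did not, and n-mir25 had no entry to compare. Although listed with the same sequence, n-mir59 and n-mir60 held different counts, with 0, 1 and 3 in HL for n-mir59 and 1, 1 and 2 for n-mir60. The listed sequence alone therefore cannot account for the counts of both, and the printed sequences of these 3 may not be those counted. Whether their counts belong to the listed name was not tested further. All were rare, with 21 summed counts for n-mir59, 16 for n-mir60, 43 for n-mir62 and 14 for n-mir63. No change by temperature or photoperiod named below rests on them. They are included in the medians and counts over the 76, and n-mir63 is named again for its counts of 0.

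The short n-mirs made up a small and mostly rare part of the miRNA counts. The 12 libraries held 609415 to 1551482 miRNA counts, which was 3.60% to 8.97% of the clean reads. The 76 together took 31592 to 38151 counts, or 2.25% to 5.52% of the miRNA counts. In CPM their sum was between 1828 and 2205 in every library, while the miRNA total moved 2.49-fold. All levels and changes below are relative to clean reads, and the effect of TMM scaling on the miRNA counts is given with the temperature result.

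**Figure D1:**
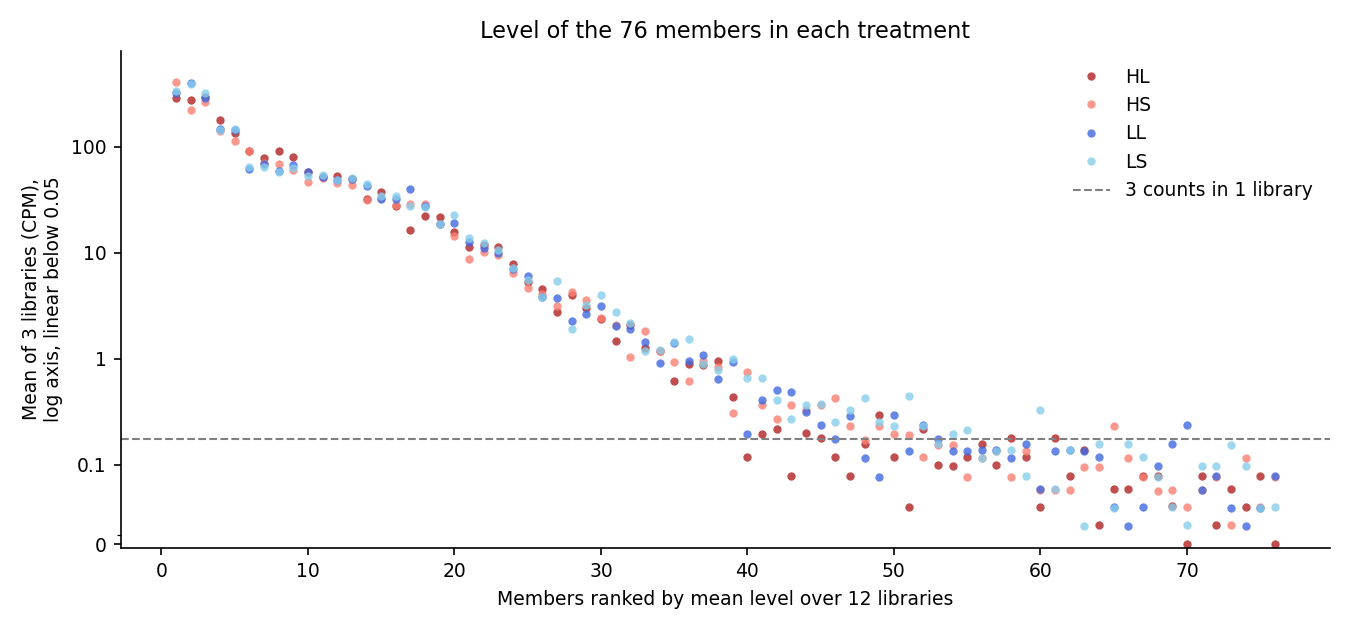
Mean level of each of the 76 short n-mirs in each treatment (3 libraries per point), ranked by mean level, on a log axis that is linear below 0.05 CPM. The dashed line is the level of 3 counts in 1 library, and from about rank 45 onwards most points lie near or below it.

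The median of the mean levels was 0.735 CPM for the short n-mirs, against 2.17 CPM for the 87 longer n-mirs not set aside and 18.6 CPM for the known families. A floor of 3 counts corresponds to 0.170 to 0.180 CPM. In 39 of the 76 every library lay above that floor, in 5 none did, and in 29 at least 1 library had no count. The 37 with fewer than 100 summed counts were spread by a median coefficient of variation of 68.8% among replicates, against 16.3% for the 25 with at least 1000 summed counts. Only large differences could therefore be seen in the rarer ones.

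A few sequences carried most of the level. The 3 most abundant took 47.7% of the summed level and the 10 most abundant took 78.9%. n-mir104 came first with a mean of 339 CPM over the 12 libraries, followed by n-mir318 at 321 and n-mir176 at 292. n-mir104 had 179, 304 and 384 CPM in HL, 389, 324 and 515 in HS, 298, 295 and 373 in LL and 362, 259.6 and 382 in LS. HL replicate 1 was the lowest and HS replicate 3 the highest, and the treatments overlapped. n-mir176 had 307, 251 and 323 CPM in HL, 294, 297 and 198 in HS, 291, 275 and 302 in LL and 423, 300.0 and 245 in LS, again with overlap. The order of these 3 is not settled by their means, because the spread among libraries of each was larger than the gap between neighbours.

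The next 7 by level were n-mir202, n-mir316, n-mir294, n-mir273, n-mir214, n-mir238 and n-mir239, with means between 53.6 and 152 CPM. n-mir202 stood above the others in every library except for n-mir316, with 168, 181 and 185 CPM in HL, 143, 138 and 141 in HS, 133, 155 and 153 in LL and 141, 151 and 139 in LS. n-mir202 and n-mir273 had the smallest spread among replicates of all 39 with at least 100 counts, with median coefficients of variation of 4.68% and 4.88%. n-mir273 had 80.4, 75.9 and 76.7 CPM in HL, 70.6, 64.6 and 73.2 in HS, 60.8, 66.5 and 76.4 in LL and 62.9, 67.2 and 64.3 in LS. n-mir238 had 76.7, 78.4 and 83.9 CPM in HL, 70.0, 65.8 and 45.5 in HS, 79.6, 58.7 and 64.9 in LL and 78.7, 56.5 and 53.5 in LS. n-mir239 had 63.0, 57.8 and 53.3 CPM in HL, 48.8, 45.8 and 44.4 in HS, 67.0, 57.5 and 47.6 in LL and 62.5, 52.7 and 42.5 in LS. For n-mir238 and n-mir239 alike, all warm and all cool libraries overlapped, as did all long-day and all short-day ones. HL against HS gave an adjusted p of 0.698 for each (edgeR quasi-likelihood test).

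Replicate 1 of LL and replicate 1 of LS stood apart from their partners for part of the short n-mirs. In 13 of the 39 with at least 100 counts replicate 1 was the lowest library of both cool treatments, and in 6 it lay more than 1.5-fold below both partners in both. Replicate 1 was likewise the lowest of both cool treatments for 26 of 78 other n-mirs and 17 of 66 known families with at least 100 counts. The 1.5-fold limit was met by 10 of those 78 and 6 of those 66. These libraries were not low throughout. Of the 39, LL replicate 1 was the lowest of its treatment for 18 and the highest for 12, and LS replicate 1 was the lowest for 16 and the highest for 16. HL replicate 1 was also the lowest of its treatment for 18. n-mir230 had 15.5, 32.4 and 48.1 CPM in LL and 15.6, 38.7 and 47.5 in LS, and n-mir323 had 5.34, 11.8 and 12.6 in LL and 6.53, 13.3 and 11.8 in LS. n-mir213 had 50.6, 45.6 and 52.5 CPM in HL and 41.9, 50.8 and 36.8 in HS, against 29.8, 57.1 and 60.6 in LL and 31.4, 63.1 and 57.4 in LS, so replicate 1 was the lowest in neither warm treatment and in both cool ones. n-mir316, one of the 10 most abundant, also had its lowest cool values in replicate 1, with 92.1, 166 and 169 CPM in LL and 93.4, 185 and 157 in LS. The temperature results below are also given without both libraries where these decided them.

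**Figure D2:**
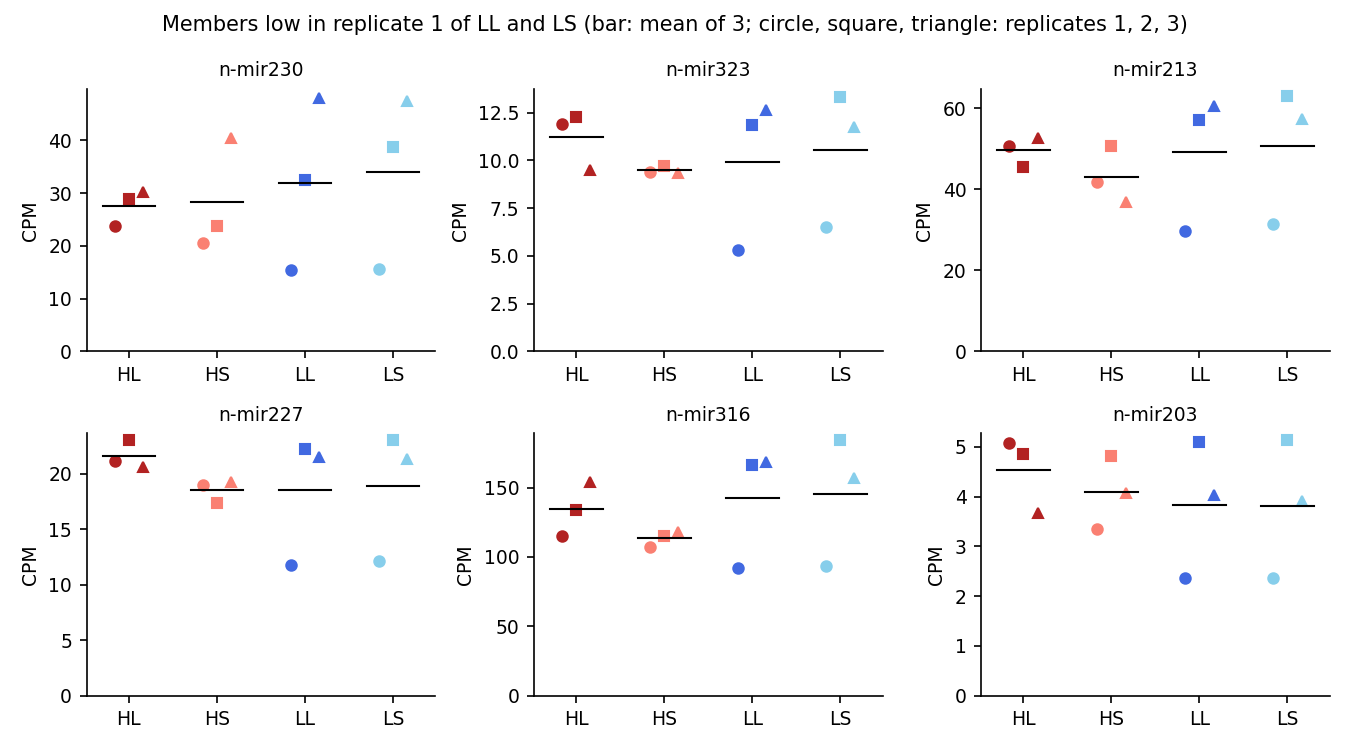
Levels in CPM of the 6 short n-mirs whose replicate 1 (circle) lay more than 1.5-fold below both partners in LL and in LS. The bars are means of 3 libraries, and n-mir230 shows the widest gap, at 15.5 CPM in LL replicate 1.

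Temperature was compared as the mean of HL and HS minus the mean of LL and LS. Of the 76, 1 changed over 2-fold with an unadjusted p under 0.001, n-mir40, against 18 of all 248 miRNAs tested (7.26%). With no fold limit and an adjusted p under 0.05, 3 rose and 7 fell at high temperature, against 14 of 248 (5.65%) that rose and 38 of 248 (15.3%) that fell. The 3 that rose were n-mir184, n-mir214 and n-mir294, and the 7 that fell were n-mir318, n-mir40, n-mir304, n-mir89, n-mir34, n-mir209 and n-mir297. The median log2 change was -0.21 over the 76 and -0.11 over all tested. The warm and cool libraries did not overlap for n-mir184, n-mir294 and n-mir318, against 26 of 248 tested (10.5%).

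n-mir184 rose most among those with enough counts. It had 3.78, 4.31 and 3.90 CPM in HL and 3.97, 3.27 and 5.56 in HS, against 2.13, 2.04 and 2.65 in LL and 1.27, 2.07 and 2.44 in LS. Every warm library lay above every cool one, and the log2 change was 0.98 (SE 0.20) with an adjusted p of 0.00262 (edgeR quasi-likelihood test, here and below). n-mir294 had 96.5, 89.4 and 84.7 CPM in HL and 93.2, 83.6 and 97.4 in HS, against 47.5, 64.2 and 70.9 in LL and 45.0, 76.3 and 70.4 in LS. The groups did not overlap, and the log2 change was 0.54 (SE 0.15), adjusted p 0.022. The 2 lowest cool libraries of n-mir294 were LL replicate 1 and LS replicate 1, and without both the log2 change was 0.37 with an adjusted p of 0.0256.

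n-mir214 rose less, and mainly in long days. It had 87.2, 87.9 and 99.3 CPM in HL and 73.2, 63.4 and 70.4 in HS, against 66.0, 52.0 and 60.4 in LL and 64.7, 55.2 and 54.4 in LS. All 3 HL libraries were above every other library, whereas HS overlapped both cool treatments. The log2 change was 0.43 (SE 0.12) for temperature with an adjusted p of 0.0167. It was 0.62 (SE 0.17) between HL and LL and 0.25 (SE 0.17) between HS and LS, and the interaction term did not separate the 2, at 0.37 (SE 0.23) with an adjusted p of 0.937.

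n-mir318 fell to 288, 281 and 249.5 CPM in HL and 243, 241 and 184 in HS, against 389, 417 and 389 in LL and 442, 410.3 and 318 in LS. It was the one abundant short n-mir that fell with no overlap, by 0.68 on the log2 scale (SE 0.14), adjusted p 0.00328. n-mir40 was far rarer and fell by more, by 1.38 on the log2 scale (SE 0.33), adjusted p 0.00799. It had 4, 6 and 12 counts in HL and 6, 5 and 5 in HS, against 22, 14 and 12 in LL and 26, 11 and 14 in LS. HL replicate 3 with 12 counts was within the cool range, and the highest counts of all were in LL replicate 1 and LS replicate 1. Without those 2 libraries n-mir40 fell by 1.02 on the log2 scale, adjusted p 0.0376, and no longer met the p under 0.001. Its unadjusted p of 0.000928 lay close to that limit. n-mir40 also missed it with TMM or DESeq2 scaling, with a filter of at least 10 counts in at least 3 libraries and with the replicate number as a block. The same held without any one library other than HL replicate 3 or LS replicate 2. Its adjusted p stayed between 0.00500 and 0.0226 without single libraries. With TMM or DESeq2 scaling n-mir184 was called in its place.

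**Figure D3:**
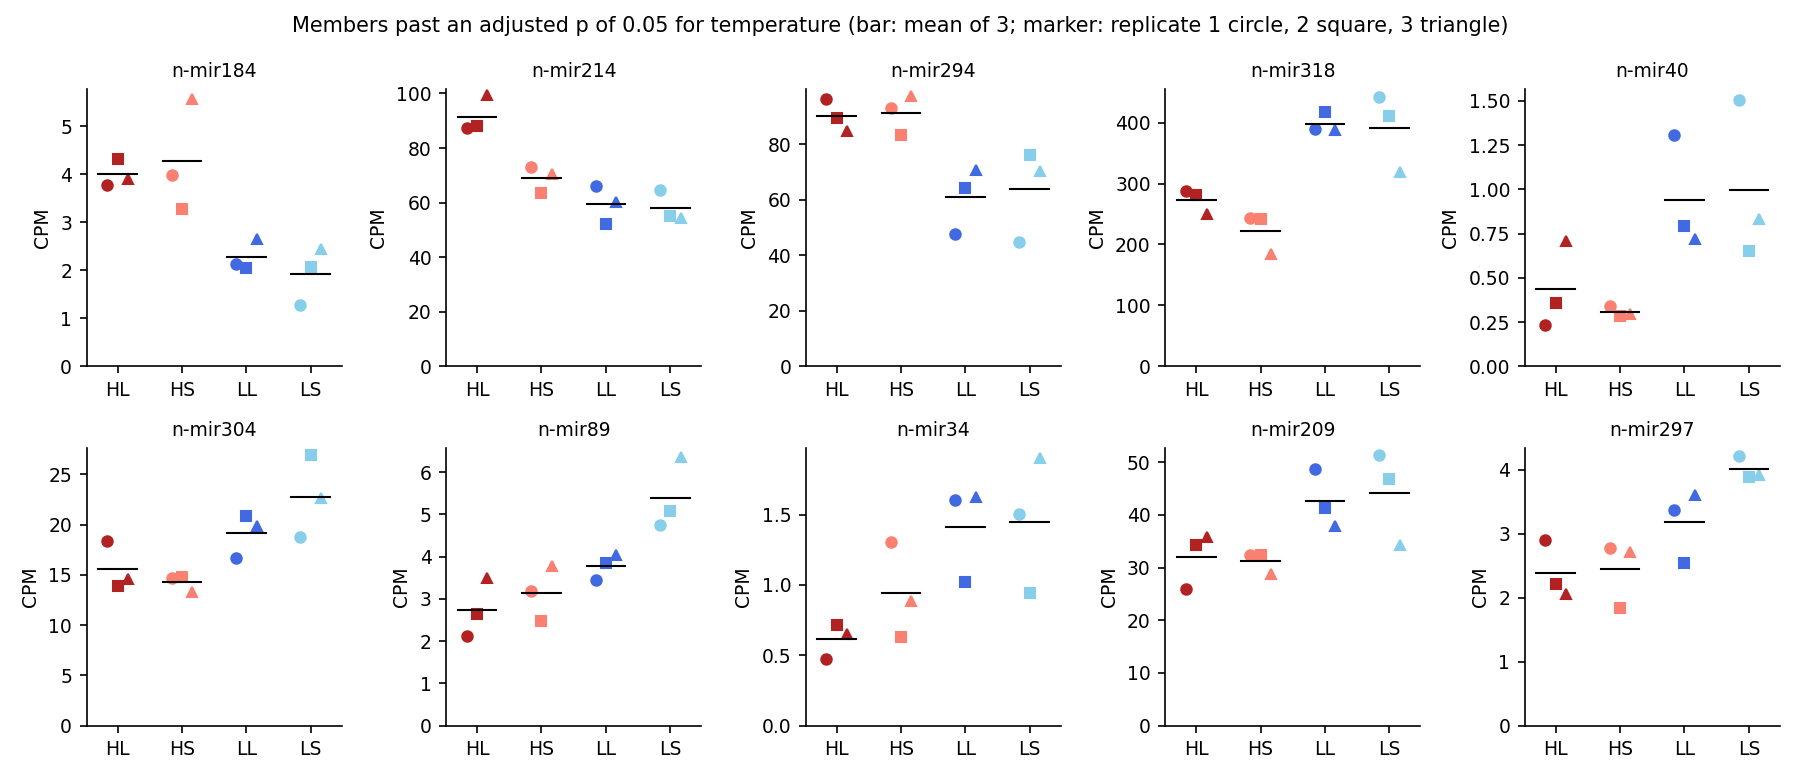
Levels in CPM per library of the 10 short n-mirs past an adjusted p of 0.05 for temperature, with the warm treatments HL and HS left of the cool treatments LL and LS. Bars are means of 3 libraries, and for n-mir184, n-mir294 and n-mir318 the warm and cool points do not overlap.

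The other 5 that fell, by 0.46 to 0.90 on the log2 scale, passed the adjusted limit on the scale of clean reads and not with TMM scaling or DESeq2. n-mir304 had 18.3, 13.9 and 14.6 CPM in HL and 14.7, 14.8 and 13.2 in HS, against 16.7, 20.9 and 19.9 in LL and 18.8, 26.9 and 22.7 in LS, log2 change -0.49 (SE 0.13), adjusted p 0.0194. n-mir89 had 2.13, 2.64 and 3.48 CPM in HL and 3.18, 2.47 and 3.79 in HS, against 3.44, 3.85 and 4.03 in LL and 4.74, 5.08 and 6.35 in LS, log2 change -0.62 (SE 0.17), adjusted p 0.022. HL replicate 1 was the one warm library of n-mir304 within the cool range, and replicate 3 of HL and of HS were within it for n-mir89. n-mir34 had 8, 12 and 11 counts in HL and 23, 11 and 15 in HS, against 27, 18 and 27 in LL and 26, 16 and 32 in LS, log2 change -0.90 (SE 0.26), adjusted p 0.0234. n-mir209 had a log2 change of -0.46 (SE 0.14), adjusted p 0.0318, with 26.0, 34.2 and 35.8 CPM in HL and 32.4, 32.4 and 28.9 in HS, against 48.8, 41.3 and 37.9 in LL and 51.4, 46.7 and 34.3 in LS. n-mir297 had 2.90, 2.22 and 2.07 CPM in HL and 2.78, 1.84 and 2.72 in HS, against 3.38, 2.55 and 3.61 in LL and 4.22, 3.90 and 3.92 in LS, log2 change -0.56 (SE 0.17), adjusted p 0.0341. Without LL replicate 1 and LS replicate 1 together, n-mir209, n-mir297 and n-mir34 missed the limit, with adjusted p of 0.0724, 0.0719 and 0.0598, and n-mir304 and n-mir89 kept it. The highest libraries of n-mir209 were those 2.

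When libraries were scaled by TMM factors on the miRNA counts in place of clean reads, the median change of all tested miRNAs moved up by 0.16 on the log2 scale. The 3 that rose, with n-mir318 and n-mir40, remained past an adjusted p of 0.05, and the other 5 that fell did not, so that 3 rose and 2 fell on that scale. n-mir34 kept a fall of 0.74 on the log2 scale there, larger than that of n-mir318 at 0.50, with an adjusted p of 0.0562. Over all tested, 21 rose and 27 fell on that scale. Those 5 also missed it with DESeq2, and leaving out single libraries ended n-mir304 in 1 of 12 fits (HL replicate 2), n-mir89 and n-mir34 in 5 each, n-mir297 in 7 and n-mir209 in 8. Of the 5 that held on each scale, n-mir294 missed the limit without HL replicate 1, with an adjusted p of 0.0536, and the others kept it without any one library.

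Other short n-mirs of the same size of level gave no call. n-mir273 had a temperature log2 change of 0.15 (SE 0.11), n-mir202 of 0.12 (SE 0.11) and n-mir1 of 0.22 (SE 0.20), with adjusted p between 0.411 and 0.544, but n-mir273 and n-mir202 passed an adjusted p of 0.05 with DESeq2. n-mir1 had 28, 17 and 19 counts in HL and 42, 27 and 27 in HS, against 24, 30 and 20 in LL and 20, 21 and 20 in LS, so that HS replicate 1 with 42 counts was the highest. n-mir122 came closest below the limit, with a log2 change of -0.70 (SE 0.25) and an adjusted p of 0.065, and passed it with the stricter filter and without HS replicate 3 or LS replicate 2.

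The temperature change was then read within each photoperiod, in libraries that the 2 comparisons do not share. HS against LS gave 0 short n-mirs past 2-fold with p under 0.001, against 10 of 248 (4.03%), and 14 had an unadjusted p under 0.05, against 64 of 248 (25.8%). DESeq2 gave 1 there. HL against LL likewise gave 0, against 10 of 248 (4.03%), with 10 at an unadjusted p under 0.05, against 53 of 248 (21.4%), and DESeq2 also gave 0. At an adjusted p under 0.05 there were 5 in short days (1 higher and 4 lower), against 30 of 248 (12.1%). There were 2 in long days (1 higher and 1 lower), against 23 of 248 (9.27%). Without single libraries these counts ran from 1 to 7 in short days and from 0 to 4 in long days. Over the 39 with at least 100 counts Pearson's r of the 2 changes was 0.56, Spearman's rho was also 0.56 and 21 had the same sign. These points share library preparation and depth, and this is a description across miRNAs, which are not replicates.

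**Figure D4:**
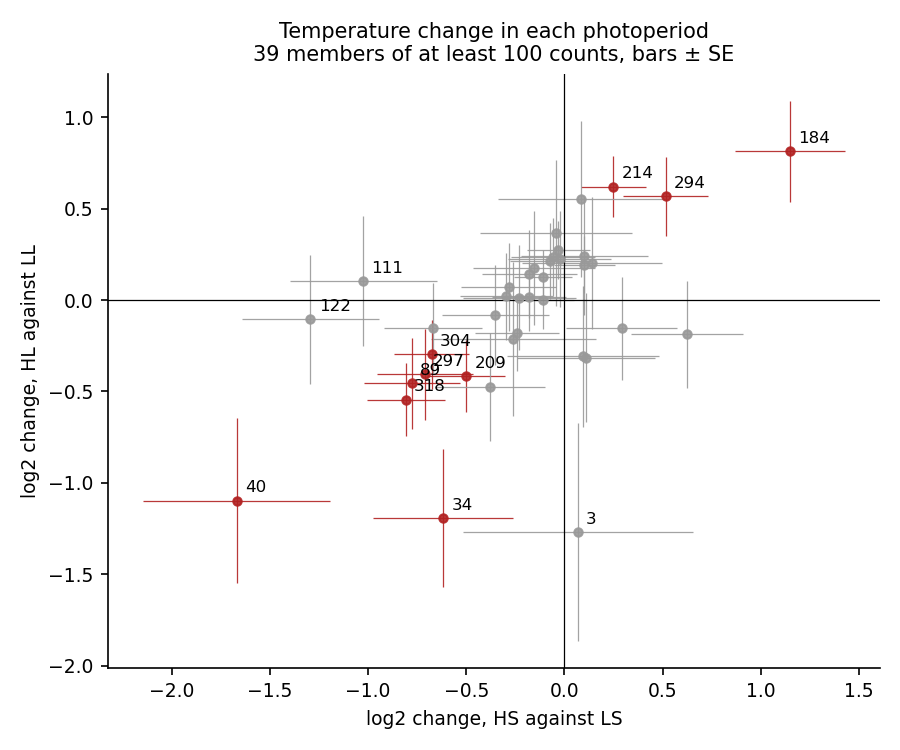
Log2 change of HL against LL (vertical) plotted on that of HS against LS (horizontal) for 39 short n-mirs of at least 100 counts, with bars of 1 SE. Red points passed an adjusted p of 0.05 for the average of both, and n-mir184 and n-mir40 lie farthest out along the diagonal, while n-mir122 and n-mir3 lie near 1 axis each.

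In short days n-mir184 rose by 1.15 (SE 0.28) on the log2 scale, adjusted p 0.0167. n-mir318, n-mir304 and n-mir40 fell there, and so did n-mir122, with a log2 change of -1.29 (SE 0.35) and an adjusted p of 0.0263. n-mir122 had 8, 10 and 14 counts in HS, against 37, 17 and 24 in LS, with LS replicate 1 the highest, and it missed the adjusted limit without replicate 1 or 2 of HS or replicate 1 or 3 of LS. Over the 12 fits without single libraries n-mir184 and n-mir318 passed in 10 (not without HS replicate 3 or LS replicate 1), n-mir122 in 8, and n-mir304 and n-mir40 in 7. In long days n-mir122 had 12, 15 and 18 counts in HL, against 17, 15 and 17 in LL. Its log2 change there was -0.11 (SE 0.35), with a sign that turned with TMM scaling and without HL replicate 1. The interaction of n-mir122 was 1.19 (SE 0.50) with an adjusted p of 0.937, so the photoperiods were not shown to differ. In long days n-mir214 rose and n-mir107 fell. n-mir107 had 2, 1 and 1 counts in HL, against 11, 5 and 9 in LL, and since every HL library was under the floor it was at least 2.76-fold lower in HL, adjusted p 0.0366. Without LL replicate 1 that bound was 2.31-fold. n-mir214 and n-mir107 each passed in 5 of the 12 fits without single libraries, with adjusted p of up to 0.119 for n-mir214 and 0.143 for n-mir107. Each was lost without any one HL library. In short days n-mir107 had 6, 2 and 11 counts in HS, against 5, 5 and 4 in LS, with overlap.

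The interaction of temperature and photoperiod gave 0 calls among the 76, against 0 of 248 (0%), and the smallest adjusted p was 0.937 for either. DESeq2 also gave 0, and 4 of the 76 had an unadjusted p under 0.05, against 11 of 248 (4.44%). Among those with at least 100 counts n-mir122, n-mir111, n-mir1 and n-mir3 had the smallest p. n-mir111 had 34, 34 and 37 counts in HL and 21, 28 and 6 in HS, against 27, 39 and 33 in LL and 37, 34 and 39 in LS. HS replicate 3 with 6 counts stood far below its other 11 libraries, which held 21 to 39. Its term was 1.13 (SE 0.52), and 0.72 without that library.

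Photoperiod was compared as the mean of HL and LL minus the mean of HS and LS. Of the 76, 1 was called, n-mir170, against 2 of 248 tested (0.806%), and 5 had an unadjusted p under 0.05, against 20 of 248 (8.06%). n-mir170 had 1, 2 and 3 counts in HL and 2, 5 and 3 in LL, against 17, 10 and 12 in HS and 13, 4 and 17 in LS. It fell in long days by 2.16 on the log2 scale (SE 0.41), adjusted p 0.0179. LL replicate 2 with 5 counts overlapped LS replicate 2 with 4 counts, and the other long-day libraries all held 3 counts or fewer. Leaving out single libraries kept it past 2-fold and p under 0.001 each time, with adjusted p between 0.00302 and 0.079 that missed 0.05 in 6 of 12 fits (HL replicates 1 and 2, HS replicate 1, LL replicates 1 and 3, and LS replicate 3), and leaving out LL replicate 1 and LS replicate 1 together ended the call.

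**Figure D5:**
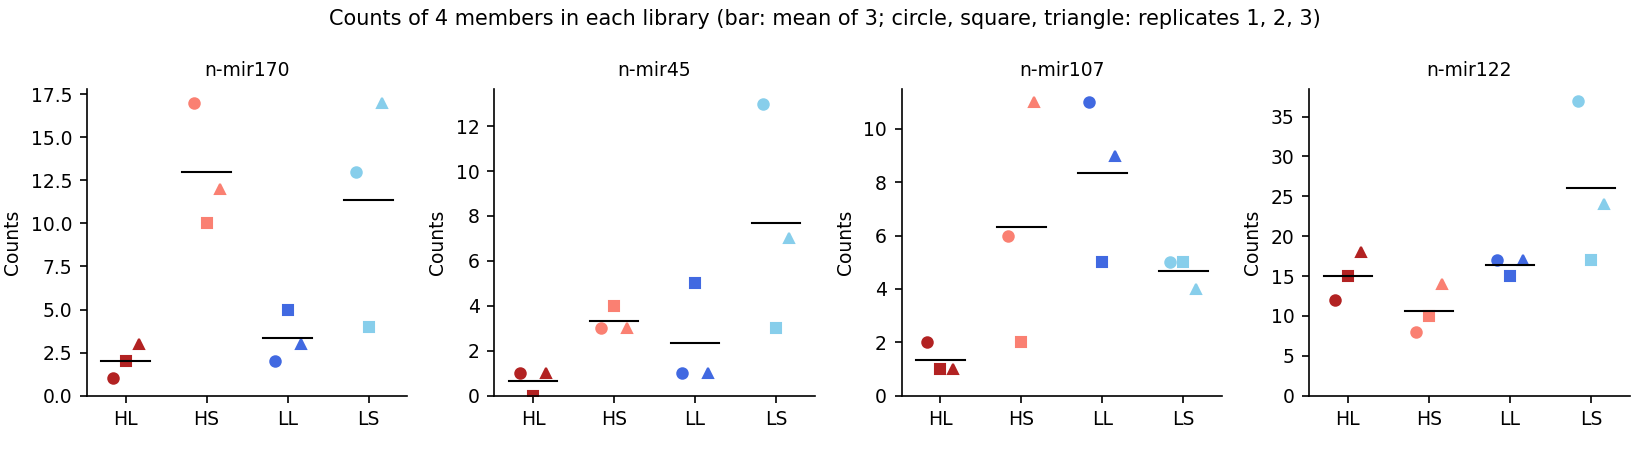
Counts per library of n-mir170, n-mir45, n-mir107 and n-mir122 in the 4 treatments, with bars at the mean of 3 libraries. n-mir170 held 1 to 5 counts in the long-day libraries (HL, LL), against 4 to 17 in the short-day ones (HS, LS).

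n-mir170 was also the one call between HL and HS, against 2 of 248 (0.806%). All HL libraries were at or under 3 counts, so n-mir170 was at least 4.21-fold lower in HL, adjusted p 0.103. Without HS replicate 1 that bound was 3.61-fold. The call between HL and HS was lost without any one library of HL, HS or LL. Between LL and LS there was no call, against 0 of 248 (0%), by edgeR or DESeq2, and 5 of the 76 had an unadjusted p under 0.05, against 13 of 248 (5.24%). n-mir170 had a log2 change of -1.73 (SE 0.56) there, adjusted p 0.658. No short n-mir with at least 100 counts passed an adjusted p of 0.05 for photoperiod, and the smallest was 0.561.

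The remaining short n-mirs gave photoperiod values that missed the adjusted limit. n-mir45 had 1, 0 and 1 counts in HL and 1, 5 and 1 in LL, against 3, 4 and 3 in HS and 13, 3 and 7 in LS, adjusted p 0.307. n-mir75 had 3, 0 and 3 counts in HL and 3, 4 and 2 in LL, against 8, 5 and 9 in HS and 5, 4 and 4 in LS, and was the one short n-mir whose long-day and short-day libraries did not overlap in CPM, against 3 of 248 (1.21%), adjusted p 0.555. At 4 counts LL replicate 2 tied with LS replicates 2 and 3, so the gap in CPM came from library size alone. Among those with at least 100 counts n-mir299 had 27, 21 and 26 counts in HL and 47, 28 and 29 in LL, against 33, 33 and 43 in HS and 60, 42 and 38 in LS, a log2 change of -0.47 (SE 0.20) and an adjusted p of 0.561. n-mir89, n-mir104 and n-mir34 were next in that direction, with log2 changes of -0.35, -0.28 and -0.33. In the other direction n-mir214, n-mir239, n-mir238 and n-mir202 had changes of 0.22, 0.22, 0.25 and 0.19, with adjusted p between 0.562 and 0.596.

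Both remaining pairs changed temperature and photoperiod together. HS against LL gave 0 calls among the 76, against 6 of 248 (2.42%), with 9 at an unadjusted p under 0.05, against 44 of 248 (17.7%), and 0 by DESeq2. n-mir318 was the one past an adjusted p of 0.05, at 0.0282, against 10 of 248 (4.03%), and it missed that limit without any one library of HS or LL. HL against LS gave 0 calls, against 17 of 248 (6.85%), with 20 at an unadjusted p under 0.05, against 75 of 248 (30.2%), and 1 by DESeq2. At an adjusted p under 0.05, 2 rose and 6 fell there, against 9 (3.63%) and 34 (13.7%) of 248, and without single libraries the sum ran from 0 to 12. Those that rose were n-mir214 and n-mir184, and those that fell were n-mir89, n-mir170, n-mir45, n-mir39, n-mir34 and n-mir299. Over the 12 fits without single libraries n-mir299 passed in 4, n-mir34 in 7 and n-mir39 in 8. In the same fits n-mir89, n-mir170 and n-mir214 passed in 9, and n-mir45 and n-mir184 in 10. n-mir45 was under the floor in HL and at least 2.52-fold lower there than in LS. LS replicate 1 held 13 of its 23 LS counts, and without it the bound was 1.66-fold and the adjusted limit was missed.

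Some short n-mirs varied more among replicates than between treatments. n-mir3 had 381, 236 and 219 counts in HL and 527, 520 and 454 in HS, against 1326, 272 and 424 in LL and 669, 113 and 628 in LS. LL replicate 1 and LS replicate 2 held its highest and lowest levels, 11.8-fold apart, whereas HS replicates lay close together at 29.9, 29.9 and 26.9 CPM. Its temperature log2 change was -0.60 (SE 0.42), adjusted p 0.388, and 0.044 without LL replicate 1 and LS replicate 1. Of those with at least 100 counts, n-mir3 had the widest gap in 1 treatment, 5.80-fold in LS, followed by 4.53-fold for n-mir111 in HS, 3.11-fold for n-mir230 in LL and 3.04-fold for n-mir113 in LS. n-mir113 had 322, 344 and 461 counts in HL and 559, 346 and 601 in HS, against 615, 399 and 402 in LL and 751, 242 and 387 in LS.

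Some short n-mirs at 0 in many libraries had counts that no test could order. n-mir139 had 0, 0 and 0 counts in HL and 0, 0 and 2 in HS, against 11, 1 and 0 in LL and 0, 0 and 1 in LS, so 11 of its 15 counts came from 1 library. n-mir120 had 1, 2 and 0 counts in HL and 0, 5 and 7 in HS, against 0, 1 and 1 in LL and 2, 0 and 0 in LS, with 12 of its 19 counts in HS replicates 2 and 3. n-mir63 and n-mir116 were at 0 in several libraries and held 14 and 10 counts in all. A count of 0 at this depth allows a level of up to 0.170 to 0.180 CPM, and this limit covers counting error only.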

How the data were processed

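Small RNA counts per mature miRNA were deposited by the authors without normalization. Before that, per the study's methods, they removed adapters, kept tags of 18 to 30 nt, aligned them to GenBank, Rfam and the cucumber genome, and summed tags with up to 3 mismatches at the ends and none in the middle. Near-identical sequences can therefore share tags. The submitters' processing notes name Bowtie and RSEM, and versions are not given in the sources used here. The deposited FPKM of 12 mRNA libraries were not used. No result is given from the deposited counts of degradome tags. The number of per-sample columns left out is 0.

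Levels are counts per 1000000 clean reads (CPM), with the clean reads of each library from the study's depth table. All 248 miRNAs with at least 10 summed counts were fitted in 1 edgeR 4.0.16 quasi-likelihood model over the 12 libraries (R 4.3.3). A miRNA was called where its change passed 2-fold with p under 0.001 before adjustment, and Benjamini-Hochberg adjusted p-values run over all tested miRNAs. The second limit, an adjusted p under 0.05 without a fold limit, was chosen after the fits had been seen. SE is the log2 change divided by the root of F. Tests are two-sided, in 9 contrasts. The p-values rest on the spread among replicates within treatments. That spread was 1 estimate per miRNA shared by the 4 treatments and moderated over all tested miRNAs, so it is not that of any single treatment. The fit was tested on simulated data for the temperature average only. Those counts were drawn independently for each library, with no effect shared by replicate number, so the test does not cover such an effect. A fold against a treatment with all libraries at or under 3 counts is a lower bound, which divides the other mean by that floor.

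The 76 members and all lists were chosen with earlier results of these data known. Members named were the 10 most abundant, those called, those with the smallest p by contrast among members of at least 100 counts (6 in each direction for temperature, 4 for photoperiod, 4 for the interaction), those sharing sequence, those in the study's text, and the rarest and, of at least 100 counts, the most uneven. Others, such as n-mir21, n-mir45, n-mir75, n-mir107 and n-mir297, were named after their values had been seen. Alternatives were TMM scaling, DESeq2 1.42.0, 2 other filters, an adjusted limit, a replicate block and leaving out libraries. Not analysed here: n-mir206, n-mir200, n-mir173.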

Additional observations from a re-analysis of the deposited data

How the results depend on the processing

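The counts of short n-mirs called were small, so single entries moved them. When the limit on p was an adjusted 0.05 and the fold limit stayed, there were 3 for HS against LS, 1 for HL against LL, 0 for HL against HS and 5 for HL against LS. TMM scaling and DESeq2 each gave 1 for HS against LS and 1 for HL against LS. A filter of at least 10 counts in at least 3 libraries gave 0 for temperature. With the replicate number as a block there were 0 for temperature, 1 for HS against LS and 1 for HL against LS. Libraries with the same number had r over 0.1 in 14 of 18 pairs (mean 0.26, lowest -0.07), and 11 of 12 libraries correlated best with their own number. This is a hint from the data that the numbers mark something shared. The values correlated were deviations from each treatment's mean, which cancel within a treatment. The mean of -0.12 for 36 pairs of different numbers follows from that centring and is no separate evidence. Pairing was to be accepted only with r over 0.1 in every pair, and the labels name no shared batch, so the block stayed an alternative. Without LL replicate 1 and LS replicate 1 together, an alternative chosen after seeing the data, there were 0 for temperature, 0 for photoperiod and 0 for HL against HS. Leaving out single libraries gave 0 to 2 for temperature and for HL against LS, 1 throughout for photoperiod, and 0 to 1 for each of the other 6 contrasts. At an adjusted p under 0.05 with no fold limit, the 10 for temperature became 5 with TMM scaling, 7 with DESeq2, and 6 to 11 without single libraries. For HS against LS 5 became 1 with TMM scaling, for HL against LS 8 became 4, and with the block the 2 for HL against LL became 5. DESeq2 gave 6 for HL against LL and 4 for HS against LL, where the main test gave 2 and 1. Of 51 named log2 changes recomputed, 2 turned their sign, that of n-mir122 for HL against LL (0.0018 with TMM scaling, -0.25 to 0.033 without single libraries) and that of n-mir3 for temperature (0.044 without both replicates 1), and the mean levels of the 10 most abundant moved by less than the replicate spread with TMM-scaled clean reads. Where a call was lost, the cause was not tested. Depth limits the 37 short n-mirs under 100 summed counts most.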

Other observations

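The summed level of the 76 short n-mirs varied less across the libraries than the miRNA total did. It varied 1.21-fold between the highest and the lowest library, while the miRNA total per clean read varied 2.49-fold. The longer n-mirs were not summed in this way, so a steady sum was not shown to be particular to the 76. The shares below follow from a nearly steady sum over a moving total. HS replicate 3 and LS replicate 1 had the largest miRNA totals, at 8.42% and 8.97% of clean reads, and the smallest shares of short n-mirs, at 2.25% and 2.46% of miRNA counts. HL replicate 1 and LL replicate 2 had the smallest totals, at 3.60% and 3.68%, and shares of 5.18% and 5.52%.

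In n-mir3 the interaction term of -1.34 shrank to -0.37 without LL replicate 1. In n-mir230 replicate 1 stood at 0.80 of the mean of its partners in HL and 0.64 in HS, against 0.38 in LL and 0.36 in LS.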
